A study of Mus musculus with 19 samples.

Results

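Interleukin-4 (IL-4) and IL-13 act on epithelial cells through a small set of receptor chains, Janus kinases and a single main transcription factor, and 8 of those genes were followed here. They were taken by symbol (Il4ra, Il13ra1, Il13ra2, Il2rg, Stat6, Jak1, Jak3 and Tyk2), and all 8 were found among the 26221 rows of the authors' normalized table and among the 27179 rows of their count table. The samples were nasal epithelial cells of naive mice on a B6.Cg background that carry the bacterial artificial chromosome transgene Tg(RP23-268L19-EGFP)2Mik, which drives enhanced green fluorescent protein (eGFP) from Chat regulatory sequence. Brush cells, the chemosensory tuft-type cells of the airway, were sorted as CD45-negative EpCAM-positive eGFP-positive cells into a gate of low forward and side scatter (FSClow, n = 9) and one of high scatter (FSChi, n = 5). The other epithelial cells were CD45-negative, EpCAM-positive and eGFP-negative (EpCAM, n = 5). All groups carry the transgene, and the labels used here give no age. The labels do not say whether the libraries of a group came from different animals, so a p-value here measures the spread between these libraries, which may be technical.

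IL-4 is bound by the IL-4 receptor alpha chain, encoded by Il4ra, which then pairs either with the common gamma chain, encoded by Il2rg, to form the type I receptor, or with the chain encoded by Il13ra1 to form the type II receptor. IL-13 binds the Il13ra1 chain first and uses the type II receptor only, while the chain encoded by Il13ra2 binds IL-13 with high affinity and is known as a decoy. JAK1 is attached to the alpha chain, JAK3 to the common gamma chain and TYK2 to the Il13ra1 chain, and these kinases activate STAT6. In mucosal epithelium this pathway is best known for the expansion of goblet and tuft cells in type 2 inflammation.

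The sort and the depth bear on every value below. Total counts per library ranged from 1348428 to 7477695. Chat averaged 543 ± 55.0 CPM (a read count relative to its library's TMM-adjusted size; SD, n = 9) in FSClow, 301 ± 92.0 (n = 5) in FSChi and 2.14 ± 1.15 (n = 5) in EpCAM, and all 12 brush cell markers were higher in both eGFP-positive groups. Summed leukocyte markers lay between 142 and 190 CPM in FSClow, between 110 and 741 in FSChi and between 507 and 3490 in EpCAM, and Cd3e and Cd3g, which mark T cells, had no count in any group. FSChi was uneven in other epithelial cells. Its replicates 1, 4 and 5 held 7720, 8540 and 11900 CPM of summed secretory cell markers against 407 and 448 in replicates 2 and 3, while EpCAM libraries held 4960 to 18700. Summed olfactory sensory neuron markers were 280, 195 and 209 CPM in FSClow replicates 1, 2 and 9 and between 64.9 and 93.0 in the other 6. Calls between the gates are also given for FSChi replicates 2 and 3 alone, and the values of Il4ra, Il13ra1, Jak3 and Stat6 also without FSClow replicates 1, 2 and 9. With FSChi replicates 2 and 3 alone, 889 of 14641 genes were called higher and 107 lower than in FSClow. With all libraries these were 2069 and 1241 of 13340. A call lost with fewer libraries does not by itself show a smaller difference. In bulk RNA, fewer expressing cells and less RNA per cell cannot be told apart.

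Both chains of the type II receptor were abundant in brush cells and low in the other epithelial cells. Il4ra was 13.5-fold higher in FSClow than in EpCAM and 8.29-fold higher in FSChi, and Il13ra1 was 15.4-fold and 6.0-fold higher. The common gamma chain and the decoy chain were near the floor of detection everywhere, so the 4 receptor genes differed in pattern. Of the intracellular genes, Stat6 was called slightly higher and Jak3 lower in FSClow than in EpCAM. The Stat6 call was unstable, lost in 12 of 19 omissions of a single library and in 12 of 18 other settings. Jak1 and Tyk2 were not called in any comparison of all 19 libraries.

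The low-count filter kept 6 of the 8 genes, and Il2rg and Il13ra2 did not pass it. Of the 6 tested, 3 were called higher and 1 lower in FSClow than in EpCAM with edgeR's quasi-likelihood test at an adjusted p under 0.05, where 22.0% of all 13340 tested genes were higher and 23.1% lower. In FSChi against EpCAM, 2 were higher and 0 lower, against 13.5% and 12.2% of all genes. In FSChi against FSClow, 0 were higher and 1 was lower, against 15.5% and 9.30%. The median log2 fold change of the 6 was 0.54, 0.18 and -0.36 in these comparisons, and that of all genes 0.05, -0.02 and -0.01. Every pair of these comparisons shares the libraries of 1 group. Relative log expression scaling moved the median of all genes to -0.14, -0.14 and 0.06. Under it the share of calls that were higher went from 48.7% to 38.2% in FSClow against EpCAM, and Il4ra and Il13ra1 kept their calls.

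**Figure D1:**
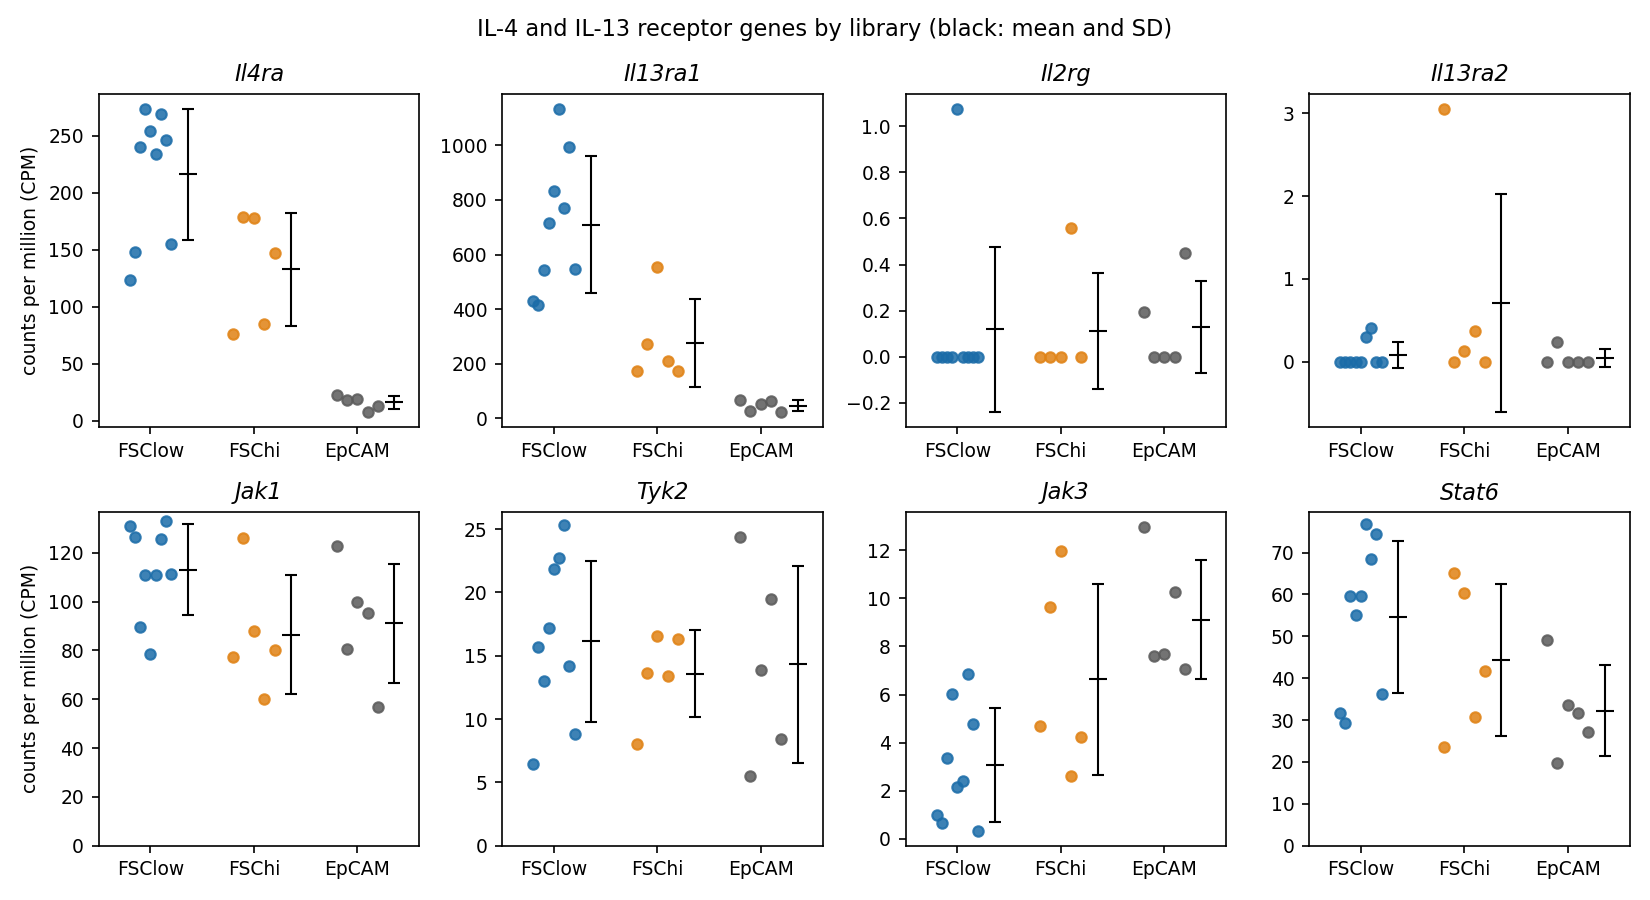
CPM of the 8 genes in each of the 19 libraries, with 1 point per library and the mean and SD in black beside each group; each panel has its own vertical axis. For Il4ra and Il13ra1 every eGFP-positive library lies above every EpCAM library, while the Il2rg and Il13ra2 panels span no more than 3.06 CPM.

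Il4ra (Entrez 16190; GRCm38.p6, the RefSeq form of mm10, chr7:125552271-125579474, plus strand) overlaps no other annotated gene. The table of RefSeq promoters, which holds the bases upstream of each annotated start, was searched over 250 bases on both strands for octamers, the motif class read by POU-domain factors such as POU2F3, the factor required for tuft cells. The search began with ATGCAAAT. The variant ATGTAAAT, and the count of windows with 3 or more of either, were added after the Il4ra window had been seen. Il4ra held 1 match of the first and 2 of the second, all on the plus strand, and no other of the 8 genes held either. The matches are shown with 10 bases on each side and the octamer in capitals, since the octamers are repeated within a short window.
Il4ra octamer at chr7:125552122-125552149: ggggtggggcATGCAAATaagccagcga
Il4ra octamer at chr7:125552194-125552221: ggggcggggcATGTAAATgaccgtgcac
Il4ra octamer at chr7:125552227-125552254: ggggcgtcgcATGTAAATaagggacacc
The octamers begin 139, 67 and 34 bases before the RefSeq start. GENCODE M21, on the same build, places the start of an Il4ra transcript at 125552120, upstream of all of them, so whether they lie before or within the transcribed region depends on the annotation. Among 32851 windows, 1.60% held ATGCAAAT, 1.22% held ATGTAAAT and 2.79% held at least 1 of either. Windows with 3 or more numbered 6, which is 0.0183%, and belonged to Rgs21, Cables2, Gm30582, Il4ra, Plppr2 and Gm4278. Of these genes, Cables2 was 39.5 ± 10.2 CPM in FSClow, 36.7 ± 20.6 in FSChi and 3.68 ± 1.68 in EpCAM (edgeR log2 fold change against EpCAM 3.43 ± 0.35 (SE), adjusted p = 2.5e-08, in FSClow). Plppr2 went the other way in FSClow, with 1.91 ± 1.14 CPM there and 11.9 ± 1.25 in EpCAM (log2 fold change -2.62 ± 0.39, edgeR adjusted p = 6e-06). In FSChi Plppr2 was at 8.83 ± 2.14 CPM and was not called against EpCAM (-0.44 ± 0.43, edgeR adjusted p = 0.49). Rgs21 was 99.9 ± 87.7 CPM in FSChi, 0.486 ± 0.978 in FSClow and without any count in EpCAM. The palindromes read by STAT proteins, TTCNNNNGAA (the spacing that STAT6 prefers, in 5.85% of windows) and TTCNNNGAA (7.02%), had no match in the windows of the 8 genes. A match is a string of letters and was not tested for binding.

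Il4ra ranged from 123.4 to 273.7 CPM in FSClow, with a median of 240.4. In FSChi replicates 1 to 5 it was 75.71, 178.4, 178.0, 84.74 and 147.4 CPM. In EpCAM replicates 1 to 5 it was 22.38, 18.06, 19.47, 7.635 and 12.50 CPM. The lowest eGFP-positive library was thus above the highest EpCAM library, whereas the FSChi and FSClow ranges overlapped. The means were 216 ± 57.3 (SD, n = 9), 133 ± 49.8 (n = 5) and 16.0 ± 5.90 (n = 5). With Benjamini-Hochberg adjustment over all genes tested, the edgeR log2 fold change against EpCAM was 3.76 ± 0.31 (SE; adjusted p = 9.6e-10) for FSClow and 3.05 ± 0.32 (adjusted p = 1e-07) for FSChi. FSChi did not pass the threshold against FSClow (-0.71 ± 0.26, edgeR adjusted p = 0.053). That value lies near the threshold. It passed without FSChi replicate 2 or 3, FSClow replicate 1, 2 or 9, or EpCAM replicate 4 (edgeR adjusted p 0.0269 to 0.044). With FSChi replicates 2 and 3 alone it was -0.28 ± 0.34 (adjusted p = 0.724), and without FSClow replicates 1, 2 and 9 it was -0.94 ± 0.25 (adjusted p = 0.00754).

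Il13ra1 (Entrez 16164, chrX:36112108-36171262) had the highest level of the 8 genes in brush cells, also per transcript length. Part of its locus overlaps the non-coding gene Gm42406, and no source used here says that strand was used in counting, so the overlap may hold reads of either. Its levels ran from 416.0 to 1134 CPM in FSClow, with a median of 714.2. The FSChi libraries, replicates 1 to 5, gave 172.3, 273.2, 552.7, 210.2 and 172.9 CPM. The EpCAM libraries gave 65.77, 25.90, 51.85, 63.11 and 23.50 CPM. Both eGFP-positive groups again lay entirely above EpCAM, and FSChi replicate 3 was the only FSChi library inside the FSClow range. Means were 709 ± 250, 276 ± 160 and 46.0 ± 20.2 CPM. The log2 fold changes against EpCAM were 3.94 ± 0.38 (edgeR adjusted p = 9.1e-09) in FSClow and 2.59 ± 0.37 (adjusted p = 1.4e-05) in FSChi.

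Il13ra1 was also the only gene of the 6 tested that was called between the brush cell gates, at 0.390 of the FSClow level in FSChi (log2 fold change -1.36 ± 0.33, edgeR adjusted p = 0.0036). Markers of other epithelial cells also differed among the FSChi libraries, and their part in the Il13ra1 difference was not tested. Summed brush cell markers were 9860, 13900, 12100, 8010 and 11600 CPM in FSChi replicates 1 to 5, and 9020 to 10400 in FSClow. The FSChi libraries rich in secretory markers, replicates 1, 4 and 5, had summed basal cell markers of 1780, 806 and 968 CPM against 131 and 94.6 in replicates 2 and 3, and they were the lowest 3 of the 5 for Il13ra1. With FSChi replicates 2 and 3 alone, a choice made after the markers had been seen, the difference was -0.78 ± 0.43 and not called (edgeR adjusted p = 0.354). Without FSClow replicates 1, 2 and 9 it was -1.59 ± 0.33 (adjusted p = 0.00137). Against EpCAM, the calls for both chains held in FSChi replicates 2 and 3 alone, with log2 fold changes of 3.40 ± 0.34 for Il4ra and 3.09 ± 0.41 for Il13ra1 (edgeR adjusted p = 1.83e-07 and 9.93e-06).

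**Figure D2:**
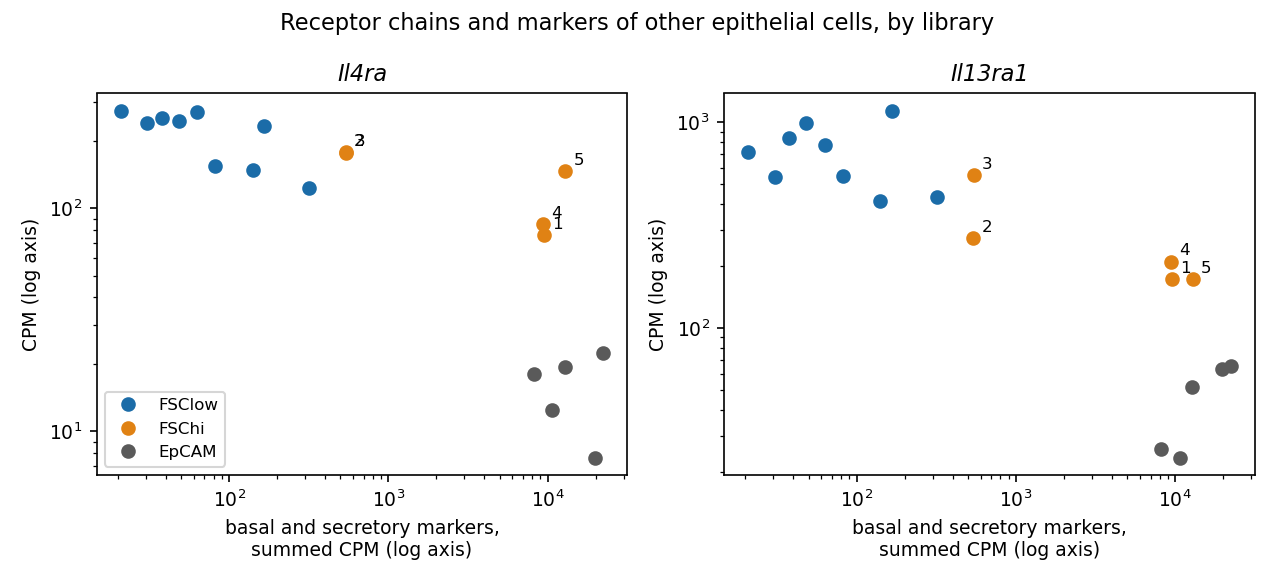
CPM of Il4ra and Il13ra1 against the summed CPM of basal and secretory cell markers in each library, on log axes, with FSChi replicates numbered. FSChi replicates 2 and 3 lie toward FSClow on the marker axis and replicates 1, 4 and 5 toward EpCAM, but all FSChi libraries are above EpCAM in both genes.

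Il2rg (Entrez 16186, chrX:101264385-101268255) had 3 counts in all of FSClow, 3 in all of FSChi and 4 in all of EpCAM. The FSClow counts came from replicate 5 and the FSChi counts from replicate 4, at 1.08 and 0.560 CPM. EpCAM replicates 1 and 5 held 1 and 3 counts. All other libraries were at 0, which allows up to 3 counts, or 0.403 to 2.41 CPM depending on the library, for counting error only. Il2rg did not pass the low-count filter, and its mean CPM gave p = 1.0 in each two-sided exact permutation test between groups. Since Il4ra had 6240 counts over the same FSClow libraries, the type I partner was at the edge of detection where its alpha chain was well covered. Il2rg is best known from lymphocytes, and the leukocyte marker Ptprc averaged 12.5 ± 9.38 CPM in FSClow and had no count in EpCAM. Lyz2 went the other way, at 6.73 ± 9.32 CPM in FSClow against 1720 ± 1370 in EpCAM. So did the summed leukocyte markers, at 142 to 190 against 507 to 3490 CPM, but Lyz2 dominates that sum in EpCAM. Of the 5 leukocyte markers that passed the filter, 2 were higher and 2 lower in FSClow than in EpCAM (all genes 22.0% and 23.1%). The part of leukocyte RNA in the Il2rg counts was not tested. Other chains that use the common gamma chain were also sparse: of 7 listed, only Il15ra passed the filter, at 6.32 ± 5.31 CPM in FSClow, 7.98 ± 4.02 in FSChi and 6.41 ± 3.84 in EpCAM, with no call (edgeR adjusted p 0.74 to 0.98). Il21r had no count in either eGFP-positive group.

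Il13ra2 (Entrez 16165, chrX:147383478-147429192) had 2 counts in FSClow, 16 in FSChi and 1 in EpCAM. Of the FSChi counts, 13 came from replicate 1, which stood at 3.06 CPM, and the next highest FSChi library was at 0.373 CPM. The same library held 38.6 CPM of summed stromal markers against 2.41 to 8.59 in the other 4 FSChi libraries; their part in the Il13ra2 counts was not tested. No difference between groups passed two-sided exact permutation tests of mean CPM (p = 0.67 for FSClow against EpCAM, 0.29 for FSChi against EpCAM and 0.11 for FSChi against FSClow).

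Ratios within a library need no scaling between libraries, and 4 of them were tested in the 3 comparisons (two-sided exact permutation of library labels, with adjustment over 12 tests). The log2 ratio of Il13ra1 to Il4ra counts averaged 1.69 ± 0.34 (SD, n = 9) in FSClow, 0.99 ± 0.56 (n = 5) in FSChi and 1.48 ± 0.96 (n = 5) in EpCAM. Each of the 19 libraries had more Il13ra1 than Il4ra counts, from 1.17 times in FSChi replicate 5 to 8.19 times in EpCAM replicate 4. FSChi was lower than FSClow by 0.69 on the log2 scale with overlapping ranges (exact permutation p = 0.011, adjusted p = 0.046), a call that 10 of the 19 omissions of a single library ended (-0.74 to -0.50, adjusted p 0.056 to 0.13). It was also lost in 5 other settings (-0.79 to -0.44, adjusted p 0.084 to 0.31), which were both TPM settings, the libraries that match their own file, FSChi replicates 2 and 3 alone and FSClow replicates 3 to 8 alone. The libraries that match their own file include only FSChi replicates 1 and 2, and there the difference was -0.79. With 2 FSChi libraries few permutations exist, so the call could hardly be kept there or with FSChi replicates 2 and 3 alone. The ratio of Tyk2 to Jak1, which both encode kinases of the type II receptor, did not differ in any comparison beyond the spread (exact permutation adjusted p 0.69 to 0.85). The ratio of Il2rg to Il4ra was lower in FSClow than in EpCAM by 3.48 on the log2 scale (exact permutation adjusted p = 0.006, with 0.0005 the smallest unadjusted p possible), with 3 and 4 counts of Il2rg in these groups. With the libraries that match their own file it was -3.66 and not called (adjusted p = 0.055), and FSChi against EpCAM did not pass (-2.76, adjusted p = 0.071). The ratio of Il2rg to Il13ra1 was lower in FSClow than in EpCAM by a log2 difference of -3.69 (exact permutation adjusted p = 0.006), which was -3.57 and not called with those libraries (adjusted p = 0.055), and FSChi against EpCAM gave -2.27 (adjusted p = 0.11). Il2rg was at 0 in 8 of the 9 FSClow and 3 of the 5 EpCAM libraries. In those, both ratios were set by the added 0.5 and the count of the other gene. Both calls thus follow the counts of Il4ra and Il13ra1, and neither measures a difference in Il2rg.

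Downstream of the receptor chains, Jak1 (Entrez 16451, chr4:101151974-101265282) was detected in every library. It ranged from 78.51 to 132.9 CPM in FSClow (median 111.2), from 60.29 to 126.2 in FSChi and from 56.79 to 122.7 in EpCAM. The ranges overlapped in each pair of groups, and the log2 fold changes against EpCAM were 0.31 ± 0.19 in FSClow and -0.08 ± 0.22 in FSChi (edgeR adjusted p = 0.2 and 0.82). FSChi against FSClow gave -0.40 ± 0.20 (adjusted p = 0.145), and without FSChi replicate 2, the Jak1 difference became -0.57 and passed (edgeR adjusted p = 0.0391). Jak1 overlaps the end of Raver2, which had 1708 counts over all libraries.

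Tyk2 (Entrez 54721, chr9:21104068-21131393) was sparser, with 6.445 to 25.36 CPM in FSClow (median 15.70), 7.994 to 16.53 in FSChi and 5.466 to 24.35 in EpCAM. Its log2 fold changes against EpCAM were 0.17 ± 0.34 in FSClow and -0.08 ± 0.39 in FSChi (edgeR adjusted p = 0.71 and 0.91). Its SE is wide enough that neither a modest rise nor a modest fall could be told from none.

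Jak3 (Entrez 16453, chr8:71676383-71690577), the kinase of the common gamma chain, was the only gene of the 6 tested that was lower in a brush cell group than in EpCAM. It ranged from 0.3518 to 6.843 CPM in FSClow, with a median of 2.420. The FSChi libraries gave 4.703, 9.642, 11.96, 2.613 and 4.253 CPM and the EpCAM libraries 12.96, 7.605, 7.674, 10.28 and 7.080 CPM. All 9 FSClow libraries were below all 5 EpCAM libraries, and FSChi overlapped both. The log2 fold change of FSClow against EpCAM was -1.54 ± 0.49 (edgeR adjusted p = 0.012). Without FSClow replicates 1, 2 and 9 it was -1.07 ± 0.43 (adjusted p = 0.0452), and with the libraries that match their own file it was -1.49 and not called (adjusted p = 0.0648). The summed leukocyte markers were also lower in FSClow than in EpCAM, at 142 to 190 against 507 to 3490 CPM, a sum that Lyz2 dominates (1720 ± 1370 CPM in EpCAM), and with Cd3e, Cd3g and Ptprc at 0 in EpCAM; their part in the Jak3 value was not tested. FSChi was not called against either group (0.59 and 0.13 as edgeR adjusted p against EpCAM and FSClow).

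Stat6 (Entrez 20852, chr10:127642955-127660987), which carries the signal to the nucleus, lay between 29.35 and 76.83 CPM in FSClow, with a median of 59.51. In FSChi it was 23.51, 65.08, 60.33, 30.80 and 41.82 CPM, and in EpCAM 49.08, 19.72, 33.50, 31.79 and 27.11 CPM. All ranges overlapped. The FSClow mean of 54.6 ± 18.1 was 1.69-fold the EpCAM level in the fit (log2 fold change 0.76 ± 0.28, edgeR adjusted p = 0.031), and FSChi did not pass (0.45 ± 0.31, adjusted p = 0.32). The FSClow call was lost in 12 of 19 omissions of a single library (0.63 to 0.71, edgeR adjusted p 0.0523 to 0.0974) and in 12 of 18 other settings, among them relative log expression scaling (0.57, adjusted p = 0.0986). Without FSClow replicates 1, 2 and 9 it was 1.04 ± 0.26 (adjusted p = 0.00226). Stat6 overlaps the end of Nab2, which had 208 counts over all libraries.

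**Figure D3:**
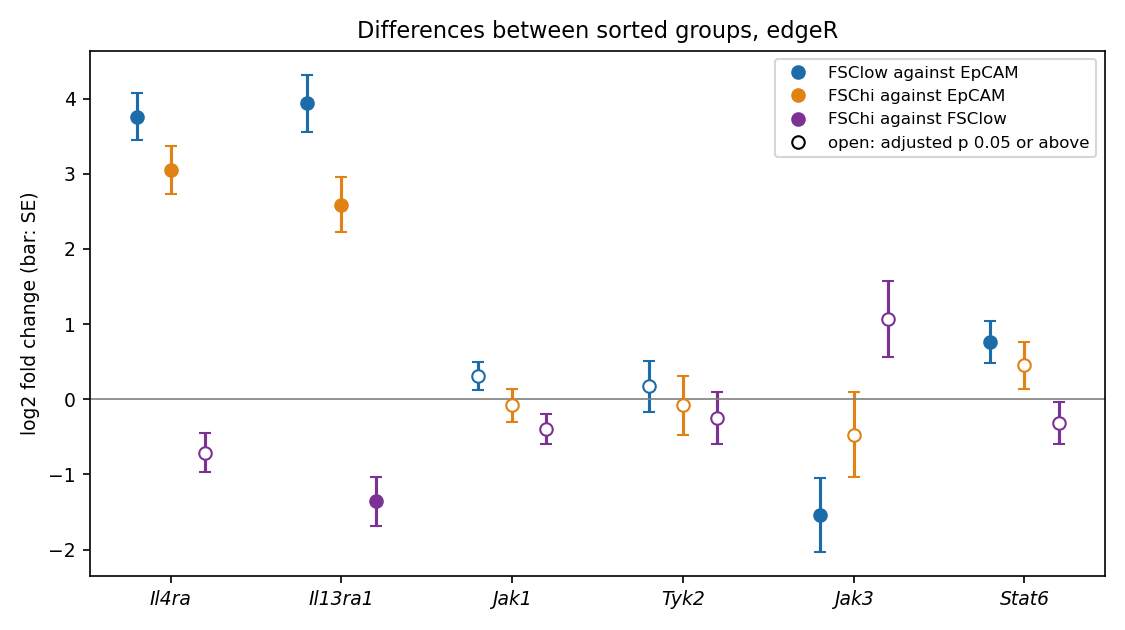
Fitted log2 fold change and SE of the 6 genes that passed the low-count filter in the 3 comparisons; filled points have an edgeR adjusted p under 0.05. Il4ra and Il13ra1 lie between 2.59 and 3.94 against EpCAM, and the 4 intracellular genes between -1.54 and 0.76.

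Levels can be set between genes only per transcript length, which the deposited TPM values allow. In FSClow the medians over 9 files were 337.8 TPM for Il13ra1, 97.96 for Il4ra, 52.27 for Jak1, 30.26 for Stat6, 3.41 for Tyk2 and 0.84 for Jak3. Il13ra1 was above Il4ra in 9 of 9 files, Il4ra above Jak1 in 8 of 9, Jak1 above Stat6 in 8 of 9 and Tyk2 above Jak3 in 9 of 9, and ranges overlapped for each of these neighbours, while the lowest Stat6 value (9.22) exceeded the highest Tyk2 value (8.17). In FSChi the order was the same over 4 files, with medians of 88.11 for Il13ra1, 53.72 for Il4ra, 34.36 for Jak1, 25.23 for Stat6, 2.875 for Tyk2 and 2.055 for Jak3, and Tyk2 was above Jak3 in only 2 of the 4. EpCAM had another order. Jak1 led with 37.69 TPM and was above Il13ra1 (20.32) in 5 of 5 files without overlap, and Stat6 (13.75) was above Il4ra (8.13) in 4 of 5. Il2rg and Il13ra2 had a median of 0 in every group.

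**Figure D4:**
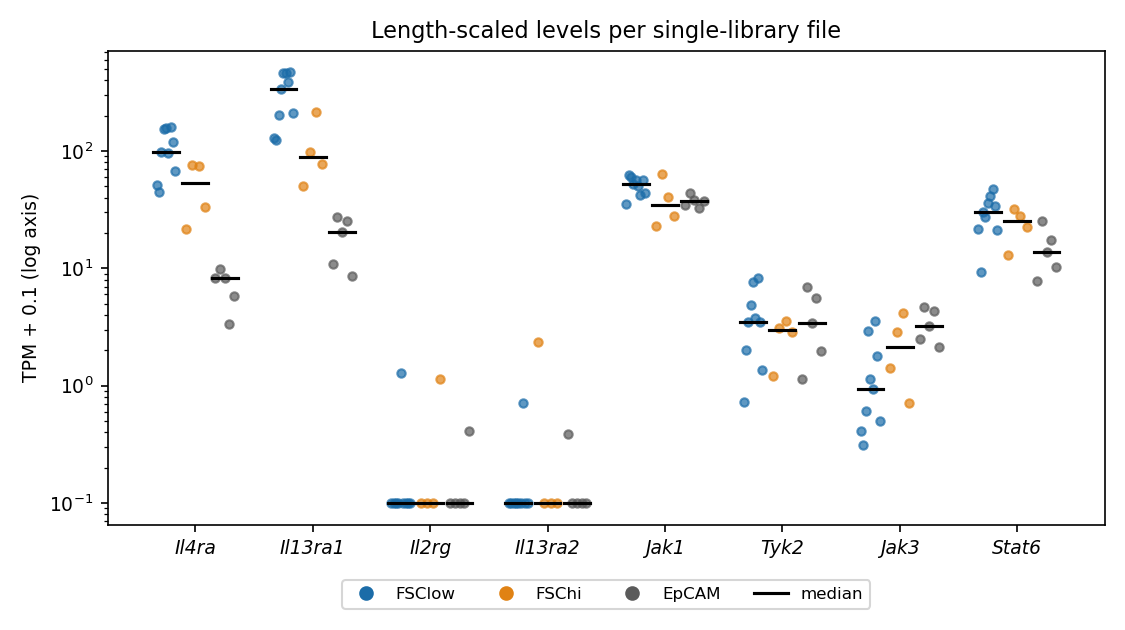
TPM of the 8 genes per single-library file, plotted as TPM + 0.1 on a log axis with the median as a bar; 1 nearly empty FSChi file is left out. Il13ra1 and Il4ra lead in both eGFP-positive groups and Jak1 leads in EpCAM, with medians of 337.8, 88.11 and 37.69 TPM for the leading gene.

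The 9 FSClow libraries did not form 1 cloud in several of the 8 genes. Replicates 1, 2 and 9 were the lowest 3 in Il4ra (123.4, 148.4 and 155.2 CPM against 233.8 or more in the others), in Stat6 (31.73, 29.35 and 36.24 against 55.03 or more) and in Jak3 (0.9916, 0.6825 and 0.3518 against 2.151 or more). For Il13ra1 replicates 1 and 2 were lowest and replicate 9, at 546.4 CPM, was near replicate 3 at 541.6. The same replicates had the highest summed olfactory sensory neuron markers, and mitochondrial counts of 4.671%, 5.679% and 4.62% against 3.038% to 4.687% in the others, while their summed brush cell markers (9116, 9018 and 10380 CPM) lay within or near the range of the others (9101 to 10090). The summed level of the 7 type 2 cytokine genes, nearly all of it Il25, was highest in replicates 2 and 1 (4940 and 4760 CPM) and lowest in replicate 7 (162 CPM). The part of these measures in the split was not tested. Over all genes, replicate 9 was about as far from replicates 1 and 2 (chi-square per gene 13.4 and 14.6) as from 3 and 4 (14.8 and 14.5). Because the libraries split in Il4ra, Stat6 and Jak3, relations among the genes were computed within replicates 3 to 8 (n = 6). There Il13ra1 and Stat6 had a Pearson r of 0.77 (exact permutation p = 0.079, adjusted over 23 relations 0.57) and a Spearman rho of 0.71 (exact permutation p = 0.14, adjusted 0.64), with r = 0.78 after leaving out the 2 libraries farthest from the Il13ra1 median. Il4ra and Stat6 had r = -0.53 (exact permutation p = 0.27, adjusted 0.57) and rho = -0.71 (p = 0.14, adjusted 0.64), with r = -0.54 without the farthest 2. None of the 23 passed adjustment within these 6 libraries. With 6 libraries, a perfect rank correlation standing alone could not have passed adjustment over 23, so this outcome decides little.

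**Figure D5:**
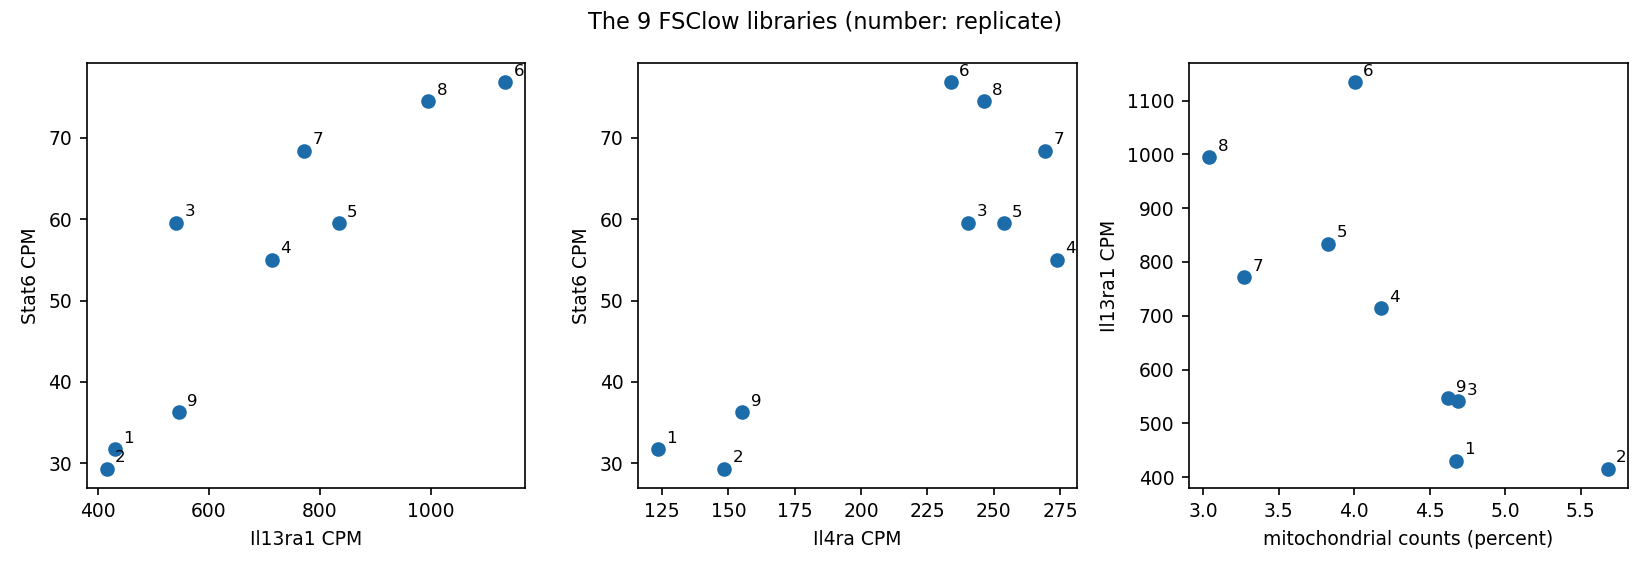
The 9 FSClow libraries by CPM of Il13ra1, Il4ra and Stat6 and by percent of mitochondrial counts, numbered by replicate. Replicates 1, 2 and 9 form a low group in Il4ra and Stat6, apart from the other 6.

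The genes whose pattern over all 19 libraries was most like each receptor chain, by Pearson correlation of log2(CPM + 1), were Plk2 (r = 0.985), Arhgap4 (0.981) and Chdh (0.981) for Il4ra, and Plcg2 (0.986), Prox1 (0.985) and Cacnb4 (0.984) for Il13ra1. Plcg2 encodes a phospholipase C that acts below immune receptors, and its level was 291 ± 105 CPM in FSClow, 105 ± 47.4 in FSChi and 22.7 ± 12.2 in EpCAM. Plk2, a polo-like kinase gene, was at 2820 ± 1020, 1440 ± 595 and 60.7 ± 12.8 CPM. For Stat6 the nearest were Trp53inp1 (0.933), Erbb3 (0.918) and Pnpla8 (0.912). Jak1, Jak3 and Tyk2 had looser neighbours, led by Foxp4 (0.864), Ppp2r5b (0.826) and Arnt (0.83). These points share libraries and depth, and the split between sorted groups enters each value.

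Of the receptor's ligands, Il13 had no count in any library, which allows up to 0.107 CPM over FSClow, 0.142 over FSChi and 0.108 over EpCAM, and Il4 did not pass the low-count filter. Of the 7 type 2 cytokine genes listed, the 2 that passed the filter were Il25, the tuft cell alarmin, at 2230 ± 1700 CPM in FSClow and 684 ± 310 in FSChi against 0.365 ± 0.597 in EpCAM (log2 fold change 12.47 ± 1.13, edgeR adjusted p = 2.4e-08, in FSClow), and Il33, an alarmin of other epithelial cells, at 4.34 ± 1.99, 11.5 ± 10.1 and 33.1 ± 18.7 CPM (-2.90 ± 0.49, adjusted p = 3.1e-05).

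Of 19 other chains of receptors that signal through JAK1 or TYK2, 12 passed the filter. Of these 12, 5 were higher and 2 lower in FSClow than in EpCAM, against 22.0% and 23.1% of all genes, with a median log2 fold change of 0.46. Il10rb, the shared chain of IL-10 and IL-22 receptors, rose to 78.0 ± 14.2 CPM from 34.0 ± 4.73 (1.2 ± 0.17, edgeR adjusted p = 2e-06). Ifnar2, a type I interferon receptor chain, rose by 1.18 ± 0.21 and Il11ra1 by 1.31 ± 0.28 (adjusted p = 4.8e-05 and 0.00053). Osmr, the oncostatin M receptor, fell to 0.314 ± 0.376 from 20 ± 15 CPM (-5.97 ± 0.63, adjusted p = 3.4e-08). In FSChi against EpCAM, 4 were higher and 2 lower (median -0.41; all genes 13.5% and 12.2%), and in FSChi against FSClow 1 was higher and 3 lower (median -0.07; all genes 15.5% and 9.30%); among the latter Ifnar1 fell by 1.03 and Il6st, the shared chain of IL-6 type receptors, fell by 1.2 on the log2 scale (edgeR adjusted p = 0.0093 and 0.014). With FSChi replicates 2 and 3 alone Ifnar1 was at -0.87 ± 0.43 and Il6st at -0.85 ± 0.51, and neither was called (edgeR adjusted p = 0.288 and 0.404).

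Of the other JAK and STAT genes, 6 of 7 passed the filter. In FSClow against EpCAM 2 of the 6 were higher and 0 lower (all genes 22.0% and 23.1%). In FSChi against FSClow 0 were higher and 2 lower (all genes 15.5% and 9.30%), and in FSChi against EpCAM 0 were called (all genes 13.5% and 12.2%). Jak2 and Stat5b were higher in FSClow than in EpCAM, by 1.56 ± 0.37 and 1.2 ± 0.4 (edgeR adjusted p = 0.0014 and 0.017), and both were lower in FSChi than in FSClow, with log2 fold changes of -1.13 ± 0.37 and -1.29 ± 0.41 (adjusted p = 0.029 and 0.025). With FSChi replicates 2 and 3 alone these were -0.52 ± 0.51 and -1.14 ± 0.60 and not called (edgeR adjusted p = 0.647 and 0.323). In FSChi against EpCAM, Jak2 and Stat5b differed by 0.43 ± 0.41 and -0.08 ± 0.45 (edgeR adjusted p = 0.48 and 0.92), and neither was called.

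All 17 listed inhibitors of the pathway passed the filter, and 4 were higher and 3 lower in FSClow than in EpCAM (median log2 fold change 0.33), which is near the 22.0% and 23.1% of all genes. Ptpn6, which encodes the phosphatase SHP-1 that dampens JAK and STAT6 signalling, was at 671 ± 69.4 CPM in FSClow and 702 ± 204 in FSChi against 32.2 ± 4.46 in EpCAM (4.38 ± 0.21 and 4.45 ± 0.22, edgeR adjusted p = 2.5e-13 and 6.5e-13). Pias1, an inhibitor of activated STATs, rose by 1.44 ± 0.16 and 1.0 ± 0.17 (adjusted p = 7.1e-08 and 0.00012). The feedback genes Socs3 and Socs2 were lower in FSClow, at 18.5 ± 19.1 against 227 ± 96.8 CPM and 61.0 ± 17.6 against 212 ± 33.2 (-3.57 ± 0.52 and -1.80 ± 0.26, adjusted p = 9.7e-06 and 3.3e-06). In FSChi against EpCAM 3 were higher and 2 lower (median of 0; all genes 13.5% and 12.2%), and in FSChi against FSClow 2 were higher and 3 lower (median -0.14; all genes 15.5% and 9.30%); Socs3 was higher in FSChi than in FSClow by 1.93 ± 0.51 (edgeR adjusted p = 0.0091), and with FSChi replicates 2 and 3 alone by 1.91 ± 0.69, not called (adjusted p = 0.13).

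Of the 10 listed adaptors of the IL-4 receptor, 9 were tested. In FSClow against EpCAM 4 were higher and 2 lower (median 0.20; all genes 22.0% and 23.1%), and in FSChi against EpCAM 3 and 1 (median -0.04; all genes 13.5% and 12.2%). Fes, a tyrosine kinase gene, was at 59.3 ± 14.3 and 69.5 ± 27.8 CPM against 6.0 ± 4.22 (3.30 ± 0.35 and 3.53 ± 0.37, edgeR adjusted p = 3.4e-08 and 1e-07). Pik3r1, the regulatory subunit of PI3-kinase, rose by 1.45 ± 0.24 and 0.99 ± 0.26 (adjusted p = 2.4e-05 and 0.007), whereas the catalytic subunit gene Pik3cd changed by -4.49 and -3.31 on the log2 scale (adjusted p = 3.2e-05 and 0.0053). Irs1, an insulin receptor substrate that binds the alpha chain, was the only gene of the 9 called between the gates, lower in FSChi (log2 fold change -1.49 ± 0.37, edgeR adjusted p = 0.0042; all genes 9.30% lower). With FSChi replicates 2 and 3 alone it was -1.39 ± 0.56 and not called (adjusted p = 0.172).

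Of 23 listed genes known to depend on STAT6 in airway or gut epithelium, 10 passed the filter. Of these 10, 9 were lower and 0 higher in FSClow than in EpCAM (all genes 23.1% and 22.0%). A gene that is high only in EpCAM passes the filter through that group, so this count describes the genes that passed and not the list. The mucin gene Muc5ac was at 1.26 ± 1.53 CPM against 37.1 ± 28.7 (-4.73 ± 0.84, edgeR adjusted p = 7.3e-05), and Agr2, which helps to fold mucins, at 3.38 ± 3.08 against 99.9 ± 31.3 (-4.96 ± 0.57, adjusted p = 2.6e-07). Tff2 and Fcgbp, which encode secreted mucosal proteins, changed by -5.91 and -5.02 (adjusted p = 5.2e-07 and 6.3e-07). In FSChi 1 was higher, Spdef, and 4 were lower than in EpCAM (all genes 13.5% and 12.2%). Spdef, a goblet cell transcription factor, was at 41.5 ± 16.0 CPM in FSChi, 10.9 ± 5.92 in FSClow and 9.79 ± 3.07 in EpCAM (edgeR log2 fold change against EpCAM 2.07 ± 0.40, adjusted p = 0.00042). Against FSClow, 6 were higher in FSChi and 0 lower (all genes 15.5% and 9.30%). With FSChi replicates 2 and 3 alone, where 14 of the list passed the filter, 1 was higher and 0 lower than in FSClow, and 1 was higher and 10 lower than in EpCAM. Of all 14641 genes tested there, 889 were higher and 107 lower than in FSClow, and 1332 higher and 1516 lower than in EpCAM. The 1 higher gene was Spdef against FSClow (2.19 ± 0.44, edgeR adjusted p = 0.00286) and against EpCAM (2.26 ± 0.50, adjusted p = 0.00273). Summed secretory cell markers moved with these values, at 14.9 to 204 CPM in FSClow, 407 to 11900 in FSChi and 4960 to 18700 in EpCAM, and their part was not tested.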

How the data were processed

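RNA was sequenced from 19 libraries of sorted mouse nasal epithelial cells. The submitters' processing notes name mm10, DESeq2, featureCounts, RSEM 1.2.21, Picard 1.1073 and STAR 2.4.2a, with no roles. A table of raw counts per gene was deposited by the authors. Their deposited normalized table, treated as a signal, equals counts divided by size factors: 100% of values came out whole within 0.01. Each library also has a deposited file with RSEM expected counts, rounded here, and TPM, per the file headers. Of these files 5 did not match their own column of the count table best, 1 of them nearly empty (6807 expected counts); the other 4 matched a column of the same group. 0 columns of per-sample values were left unused. Identifiers without a symbol (1322) held 0.982% of counts.

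The 8 genes and the 17 lists were chosen with earlier results of these data known. The main test was edgeR 4.0.16 in R 4.3.3 on the counts: filterByExpr by group, TMM scaling, robust quasi-likelihood fit of group on all 19 libraries, Benjamini-Hochberg adjustment over 13340 genes, calls at an adjusted p under 0.05. It was tested on simulated data. Within-library ratios added 0.5 to each count. Genes named beside the 8 were the 4 with the smallest p in a list and comparison, the 3 most alike to each of the 8, and checks of the sort; genes with repeated octamers, Ptprc, Lyz2, Cd3e, Cd3g and genes named as without counts were chosen after their values were seen. Fits that keep only FSChi replicates 2 and 3 (summed basal and secretory markers under 1000 CPM) or FSClow replicates 3 to 8 (olfactory neuron markers under 100 CPM) were added after the data had been seen. Other alternatives used limma 3.58.1 and DESeq2 1.42.0. Coordinates and promoters are from RefSeq (GRCm38.p6). No 2 libraries of a group agreed within sampling noise (lowest chi-square per gene 5.51). Floors cover counting error only. 1 gene of the list of other JAK and STAT genes is not reported here by name.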

Additional observations from a re-analysis of the deposited data

Results flagged for a closer look

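In 5 of the 24 groups of values (8 genes in 3 groups of libraries), the highest library stood apart from the rest by Dixon's criterion, which chance alone meets in about 1 in 20 groups. Il13ra1 in FSChi replicate 3 was 553 CPM against 273 in the next library. Il13ra2 in FSChi replicate 1 was 3.06 CPM against 0.373, and in EpCAM replicate 2 it was 0.238 CPM, from 1 count, against 0. Il2rg in FSClow replicate 5 was 1.08 CPM and in FSChi replicate 4 it was 0.56 CPM, each from 3 counts, against 0 in the other libraries of those groups. Where all other libraries are at 0, a single library with counts meets the criterion by construction, and the rate of 1 in 20 does not apply. This holds for Il13ra2 in EpCAM and for Il2rg in FSClow and FSChi.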

How the results depend on the processing

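Il4ra and Il13ra1 kept their calls against EpCAM when any 1 library was left out and in all other settings, except on TPM with the nearly empty FSChi file (FSChi against EpCAM 1.48 and 1.12 with 1 added, 0.99 and 0.53 with 0.1 added; Il13ra1 in FSClow 4.04 with 0.1 added, adjusted p = 0.0524). Genes called, 6017, 3421 and 3310 in FSClow against EpCAM, FSChi against EpCAM and FSChi against FSClow, became 2572, 1722 and 908 with log2(TPM + 1) and 645, 139 and 34 with log2(TPM + 0.1). With log2(TPM + 1) without that file FSChi against FSClow had 1947. With libraries that match their own file the counts for FSChi against EpCAM and against FSClow were 1838 and 1754. FSChi against FSClow had 2106 when only the 2 groups compared were fitted, and 996 with FSChi replicates 2 and 3.

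Of the 6 genes, 0 were called lower in FSClow against EpCAM with matching libraries and with both TPM settings, and 1 was called higher with 0.1 added to TPM, where Jak3 was not among the 5 tested. In FSChi against EpCAM 0 were called higher with both TPM settings. In FSChi against FSClow, 0 were called lower with log2(TPM + 0.1) (Il13ra1 -3.51), with libraries numbered 1 to 5 (-1.02) and with FSChi replicates 2 and 3, and 2 with FSClow replicates 3 to 8. Leaving out 1 library gave 5430 to 6508, 2702 to 3572 and 2634 to 3498 genes called, 2 to 3 of the 6 higher in FSClow against EpCAM, and 1 to 3 lower in FSChi against FSClow. The Jak3 call was lost with matching libraries (-1.49, adjusted p = 0.0648) and with log2(TPM + 1) (-1.03, adjusted p = 0.0904). The causes were not tested.

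The labels do not say whether equal replicate numbers pair libraries. Deviations of same-numbered libraries correlated from -0.213 to 0.442. Libraries of different numbers were not set beside them, so these values cannot decide on pairing. A replicate block on the 15 libraries numbered 1 to 5 gave 5151, 3251 and 1970 genes called, against 5248, 3291 and 2245 without it, and ended the Stat6 call (0.41, adjusted p = 0.357), which the same libraries also lost without the block (0.44, adjusted p = 0.278). Counts rebuilt from the normalized table gave 5856, 3371 and 3265 genes called. The share of calls that were higher against EpCAM, 48.7% in FSClow and 52.5% in FSChi, was 30.3% and 34.3% on the authors' normalized values, and 39.3% in FSClow with DESeq2. Depth limits Il2rg and Il13ra2, which did not pass the low-count filter.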
